A study of Kluyveromyces marxianus and Kluyveromyces lactis with 30 samples.

Results

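The transcriptome of Kluyveromyces marxianus grown with the alkylating agent methyl methanesulfonate (MMS) was compared with that of cultures grown at 28C without added stress. The comparison took the 3 MMS libraries and the 3 control libraries, 6 of the 30 libraries of the series. They were picked by their labels, with earlier results of these data known. All cultures were of the strain Km31, diluted to 0.05 OD (optical density) in 50 mL of YPD medium and harvested between 0.4 and 0.85 OD. RNA was captured by its poly(A) tail, so the counts describe mostly messenger RNA of whole cultures. The labels give neither the dose of MMS, nor the time in it, nor the temperature of the MMS cultures. Each group is 3 replicates that the series calls biological, all from the same strain.

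MMS adds methyl groups to DNA bases. In baker's yeast these lesions are removed by base excision repair, and those still present when DNA is copied stall replication forks. Stalled forks switch on a checkpoint whose kinases raise the genes for deoxynucleotide synthesis and repair, while a broader stress programme lowers genes for ribosome production. Which K. marxianus genes carry these roles could not be read here: the files do not pair gene IDs with names, 0 of 5207 IDs were found in the reference gene table, and no member of a list of DNA damage genes of baker's yeast could be looked up. The response is therefore described by abundance, gene length, position, size and replicate agreement, with 2 IDs that rose and 2 that fell.

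Gene counts per library, in units of 1e6, were 18.9, 39.1 and 25.6 in MMS replicates 1 to 3 and 23.7, 23.6 and 21.1 in the controls. Of the 5207 genes, 5098 passed the filter on low counts. The 109 left out never exceeded 12 counts in any of the 6 libraries, 75 of them had none, and 69 lie on the small unplaced sequences. The share of reads on no feature was 4.75% ± 0.126 (SD, n = 3) in MMS and 4.71% ± 0.189 in controls, with overlapping groups. As a sign of RNA quality, counts on the first coding part were set against those on the last in 48 genes with several parts. The median log2 ratio was -0.99, -1.01 and -1.21 in MMS and -0.94, -1.07 and -0.96 in controls, so these groups overlapped too (exact permutation p = 0.5). A bulk library cannot tell fewer cells with a transcript from less of it per cell.

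Cultures in MMS changed most of their genes, by small amounts and in both directions. Of 5098 genes tested, 62.2% were called in edgeR's quasi-likelihood test at an adjusted p under 0.05, 31.2% higher and 31.1% lower. The median change of the higher genes was 0.54 on the log2 scale and that of the lower genes was -0.53. Among the called genes, 1761, or 55.5%, differed by less than 1.5-fold. At least 2-fold, 10.5% of tested genes were called, with 5.63% higher and 4.9% lower. At 4-fold there were 42 higher and 46 lower genes, and at 8-fold 3 higher and 11 lower. One of the 3 had no count in any control library and 6 to 15 counts in MMS libraries, so its fitted fold depends on the prior count.

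The distribution of changes was close to symmetric about its middle. The quartiles were -0.35 and 0.36, 90% of genes lay within 1.02 of 0, and 99% within 2.35, all on the log2 scale. The median standard error of a gene's log2 change was 0.11, and the smallest change called was 0.15. The middle itself depends on the scaling. TMM scaling, used throughout, put the median gene at 0.00 and RLE scaling at -0.04, while raw library totals put it at 0.34. Changes are therefore relative to the middle of all genes, and the total RNA per cell was not measured.

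The most abundant transcripts lost ground as a group and the rest spread out. Of the 159 genes with a mean over 1000 CPM (counts per 1e6 counts of the library, TMM-scaled, mean over the 6 libraries), 100 were lower and 9 higher, against 31.1% and 31.2% of all tested genes. Their median log2 change was -0.37 under TMM and -0.41 under RLE scaling. On raw totals it was -0.03, with 75 of the 159 above 0, while the median of all genes stood at 0.34. A scaling moves all genes of a library alike, so the gap between the class and all genes is the same in each. Only 11 of the 100 lower genes fell at least 2-fold.

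The other classes were nearer to balance, and the least abundant had the widest changes. Among the 2960 genes of 10 to 100 CPM, 1036 were higher and 862 lower, with a median log2 change of 0.04. Among the 1525 genes of 100 to 1000 CPM, 419 were higher and 511 lower, with a median of -0.03. With RLE scaling the counts were 941 and 939 in the former class and 370 and 559 in the latter. In the class of 1 to 10 CPM, 117 of 396 were higher and 97 lower, and 19.9% were called at least 2-fold, where all tested genes had 10.5%. In the 58 genes under 1 CPM that share was 31.0%, but the median standard error was 0.48 and only 37.9% were called at any size. The median size of change, without its sign, was 0.77 there, 0.49 at 1 to 10 CPM, 0.36 at 10 to 100 and 0.30 at 100 to 1000, and 0.38 above 1000.

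**Figure D1:**
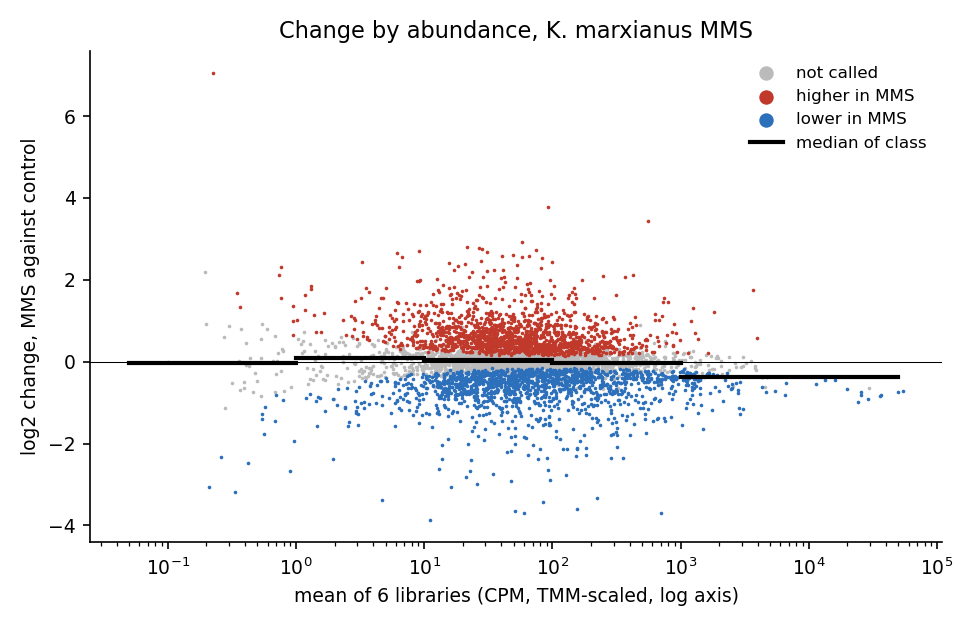
Log2 change in MMS against control (vertical) by mean CPM over the 6 libraries (log axis), 1 point per tested gene. Red and blue points were called higher and lower, grey points were not called, and black lines are class medians, which fall to -0.37 above 1000 CPM. The point at 7.05 is the gene with no count in controls.

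Genes were also ranked by counts per base in place of counts. In the highest quintile of CPM per kilobase, 202 of 1020 genes were higher and 422 lower, with a median log2 change of -0.15. In the lowest quintile, 387 of 1020 were higher and 245 lower, with a median of 0.15. The share called was 61.2% in the highest quintile and 62.0% in the lowest, close to the 62.2% of all genes. The share changed at least 2-fold was 9.51% and 18.7%.

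Transcript pools were less concentrated in every MMS library. The effective number of genes, the exponential of the Shannon entropy of gene shares, was 886, 832 and 876 in MMS and 550, 499 and 583 in controls. All 3 MMS libraries lay above all 3 controls, with means of 865 ± 28.5 and 544 ± 42.4 (SD, n = 3). The exact permutation p was 0.1, below which 3 against 3 libraries cannot go. Adjusted by Benjamini-Hochberg over the 18 library-level values, it was 0.164. The most abundant genes that together made up 50% of counts numbered 159, 147 and 157 in MMS and 77, 63 and 84 in controls. Without the 10 most abundant genes the effective number was still 1704 ± 37.5 in MMS against 1445 ± 31.4 in controls, again without overlap (exact permutation p = 0.1).

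**Figure D2:**
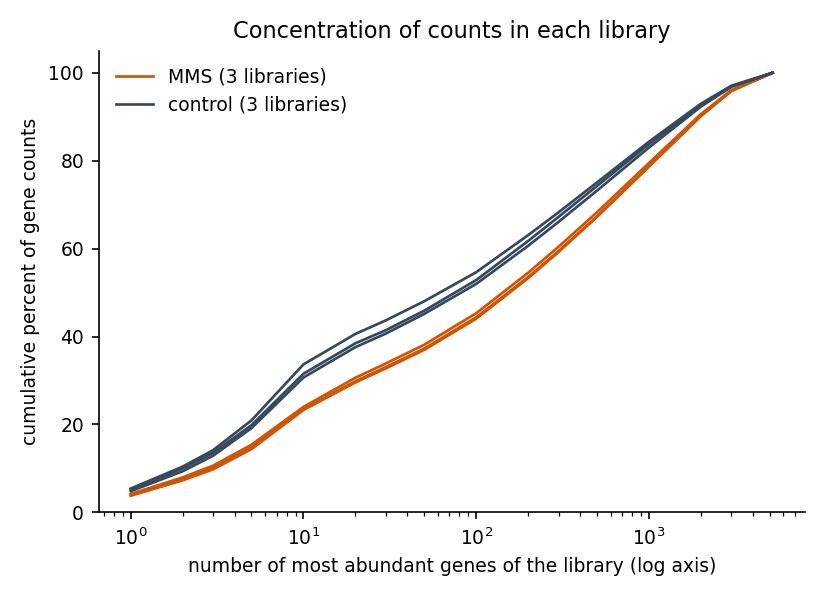
Cumulative percent of gene counts (vertical) held by the most abundant genes of each library (number of genes, log axis), 1 line per library. The 3 MMS lines run below the 3 control lines, with 44.1% to 45.3% of counts in the first 100 genes against 52.0% to 54.6%.

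The lost share came from few genes and was taken up by many. Between the mean shares of the groups, 15.04 percentage points of all gene counts moved. The 9 largest losers made up 50% of the loss, while 50% of the gain took the 287 largest gainers. Shares sum to 100%, so a gene can gain share without being called higher. In all, 3816 genes gained share, while 1590 were called higher. The genes called higher held 9.45% of counts in controls and 18.8% in MMS. The 10 most abundant genes of the controls were also the 10 most abundant in MMS and were the 10 largest losers. Their shares of counts fell together from 31.5%, 33.7% and 30.7% in the control libraries to 23.3%, 24.0% and 23.5% in MMS. With TMM scaling each lost 0.65 to 0.99 on the log2 scale, 9 of the 10 were called lower and 0 fell 2-fold. On raw totals, as used for the shares, the median log2 change of these 10 genes was -0.43. They were ranked on these libraries, so part of their fall is built into the choice. Lower down the list, 78 of the 100 most abundant genes of controls were still among the 100 most abundant in MMS. By class, genes over 1000 CPM held 57.4% to 59.8% of counts in controls and 49.5% to 50.8% in MMS. Genes of 10 to 100 CPM held 9.2% to 10.01% in controls and 12.2% to 12.7% in MMS.

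The largest single gain was in KM020B04390, a gene of 690 bases on the plus strand of chromosome 2 (874156 to 874845). It stood at 2059, 1969 and 1948 CPM in controls and at 6177, 7473 and 6559 CPM in MMS. Every MMS library was thus above every control library. The rise was 3.38-fold, with a log2 change of 1.76 ± 0.13 (SE, edgeR adjusted p = 6.44e-08). Per kilobase it rose from 2887 ± 85.5 to 9763 ± 965 (SD, n = 3), which moved it from rank 41 to rank 12 of the tested genes. In heat its libraries held 6906, 7877 and 9178 CPM, which overlap those of MMS. The direct log2 difference, MMS minus heat, was -0.25 (adjusted p = 0.103), and 2 standard errors either side run from -0.49 to 0.00. Caffeine libraries, at 3579 to 4221 CPM, lay between the controls and MMS (log2 difference 0.78 ± 0.12, edgeR adjusted p = 5.34e-05).

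KM020G01730, 3152 bases long on the minus strand of chromosome 7 (339008 to 342159), went from a middling to a high level. Its controls were at 181, 157 and 169 CPM and its MMS libraries at 1768, 1858 and 1826 CPM. The 3 MMS libraries were alike and far above the controls. Its log2 change was 3.43 ± 0.23 (SE, edgeR adjusted p = 3.74e-08), and its rank per kilobase moved from 2059 to 239. In heat it was at 379, 192 and 174 CPM, with replicate 1 apart from the other two, and in caffeine at 804, 702 and 825 CPM. The level in MMS was higher than in heat by 2.87 ± 0.23 on the log2 scale and than in caffeine by 1.23 ± 0.21 (edgeR adjusted p = 9.52e-08 and 0.000127).

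Among non-overlapping genes that fell at least 2-fold, KM020D05580 lost the most CPM; the 10 most abundant genes, none of which fell 2-fold, are outside that choice. It is 2058 bases long, on the plus strand of chromosome 4 (1200732 to 1202789). It held 4364, 4884 and 4407 CPM in controls and 1875, 1918 and 1803 CPM in MMS. The groups did not overlap, and the log2 change was -1.29 ± 0.14 (SE, edgeR adjusted p = 2.12e-06). Heat libraries, at 1977, 2773 and 2715 CPM, were all above those of MMS, by a smaller margin (log2 difference, MMS minus heat, -0.42 ± 0.13, adjusted p = 0.0163). Caffeine libraries were far lower, at 441, 334 and 389 CPM.

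KM020C06260 fell in MMS and stood above controls in heat. It spans 1782 bases on the plus strand of chromosome 3 (1332184 to 1333965). Controls were at 4490, 4386 and 4857 CPM, MMS libraries at 2088, 2051 and 2029 CPM and heat libraries at 5601, 5830 and 5910 CPM. The 3 groups did not overlap. The log2 change in MMS was -1.15 ± 0.09 (SE, edgeR adjusted p = 1.01e-07), and in the direct test MMS was below heat by -1.49 ± 0.09 (adjusted p = 5.61e-09). In caffeine the gene was lower still, at 1569, 1429 and 1287 CPM.

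**Figure D3:**
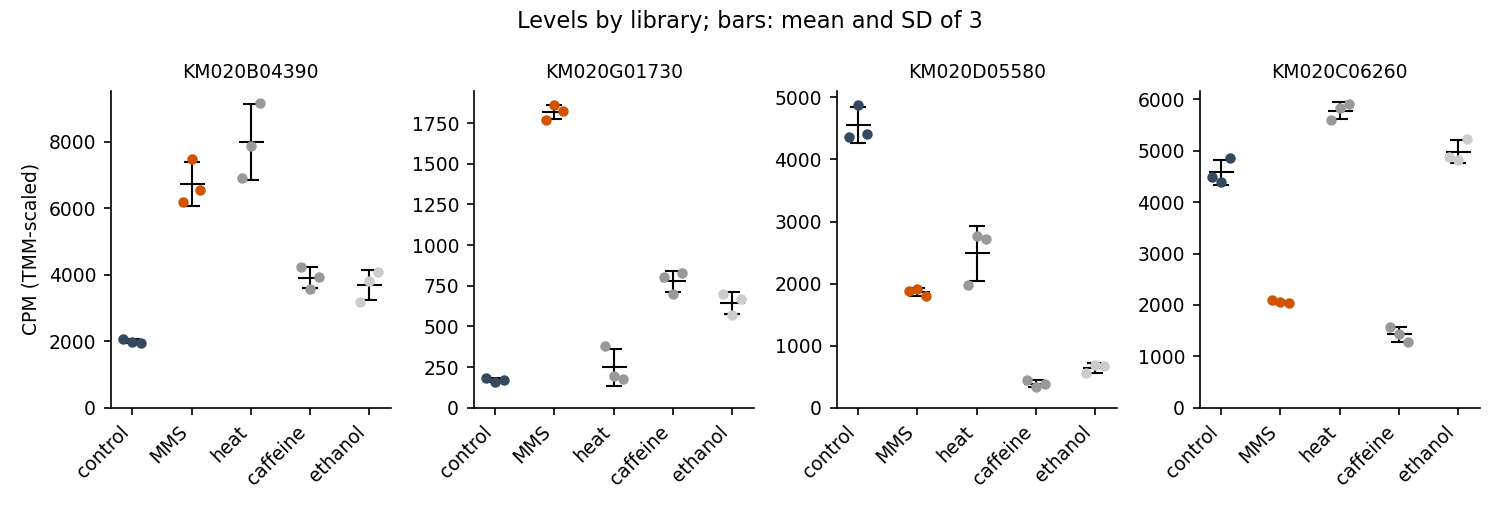
CPM (TMM-scaled) of the 4 IDs in each of 5 conditions, 1 point per library, with bars for the mean and SD of 3; axes start at 0 and differ between panels. KM020G01730 is highest in MMS, while KM020B04390 in MMS overlaps heat. The ethanol points came from another counting program.

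Counts of calls leaned to higher among long genes and to lower among short genes. In the longest quintile of genes, 2385 to 15404 bases, 393 of 1020 were higher and 264 lower, with a median log2 change of 0.09. In the shortest quintile, 66 to 741 bases, 236 of 1022 were higher and 342 lower, with a median of -0.07. The 147 genes under 300 bases had 25 higher and 52 lower, and the 103 over 5000 bases had 40 higher and 22 lower. The share called at least 2-fold ran from 8.35% in the second quintile to 12.2% in the longest. Its higher part was 4.13% in the former and 7.94% in the latter, and its lower part 4.22% in both. With RLE scaling the longest quintile had 348 higher and 283 lower, and the shortest 202 higher and 366 lower.

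Length was also followed within 2 of the abundance classes. Within 10 to 100 CPM, 246 of the 504 genes of the longest quintile were higher and 101 lower, a median log2 change of 0.22. The shortest quintile of that class had 145 of 587 higher and 188 lower, a median of -0.05. At least 2-fold, 15.5% of the longest and 7.33% of the shortest quintile of that class were called. Within 100 to 1000 CPM the longest quintile was even, with 138 of 458 higher and 133 lower, while the shortest had 34 of 210 higher and 90 lower. There the shares at least 2-fold were 7.86% in the longest and 10% in the shortest.

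Library composition by length moved with this, but so did differences between controls. Genes of 2000 to 4000 bases took 21.7%, 21.0% and 21.5% of counts in MMS and 18.4%, 18.4% and 19.3% in controls. Genes over 4000 bases took 4.43% ± 0.112 in MMS and 3.75% ± 0.0754 in controls (SD, n = 3). In neither length class did the groups overlap (exact permutation p = 0.1, adjusted 0.164). Without the 10 most abundant genes, the difference for genes of 2000 to 4000 bases was 0.585 percentage points with overlapping groups (exact permutation p = 0.3). For genes over 4000 bases it was 0.286 points without overlap. Across the 5098 genes, which are not independent replicates, the Spearman correlation of length with the log2 change was 0.10. The same correlation for the difference of control replicate 1 minus control replicate 2 was -0.26, and for control 1 minus control 3 it was -0.21. For control 2 minus control 3 it was 0.04, and between MMS libraries it was 0.16, 0.12 and -0.10. The 3 disjoint differences, MMS minus control of the same replicate number, had 0.17, 0.05 and 0.08. These are differences of single libraries, while the 0.10 rests on 3 libraries per group. In single differences the trend was thus no larger than the largest between replicates. Its part in the counts by quintile was not tested.

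**Figure D4:**
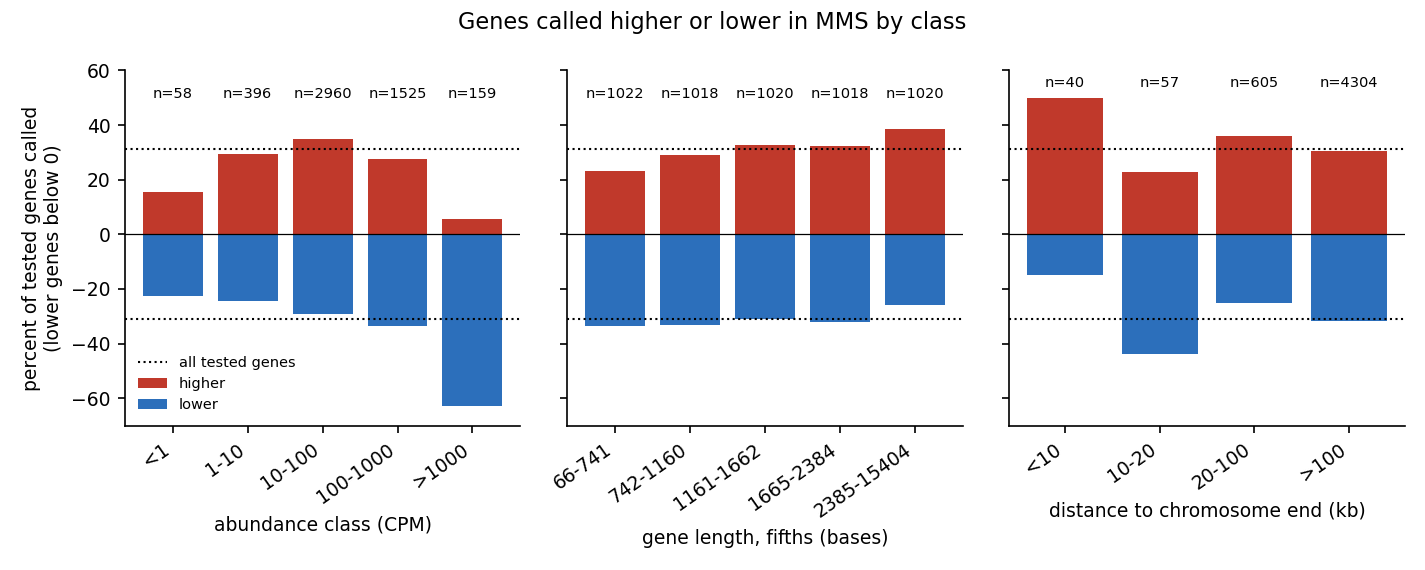
Percent of tested genes called higher (red, above 0) or lower (blue, below 0) by abundance class, quintile of gene length and distance to a chromosome end; dotted lines mark all tested genes and n is the number of genes. The class over 1000 CPM stands out with 62.9% lower, and genes within 10 kb of an end with 20 higher against 6 lower of 40.

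The share of genes called by chromosome ran from 60.8% on chromosome 6 to 63.6% on chromosome 5, close to the 62.2% of all tested genes. The balance of directions varied too. Chromosome 7 had 158 of 451 genes higher and 122 lower, with 37 and 15 at least 2-fold, whereas chromosome 5 had 164 of 566 higher and 196 lower. Both strands were alike, with 62.6% of genes called on the plus strand and 61.8% on the minus strand. The 92 tested genes on small unplaced sequences, 83 of them on sequence 9, had 19 higher and 34 lower, or 20.7% and 37.0%. Their median log2 change was -0.11. Their share of counts was nevertheless slightly higher in MMS, at 1.09% ± 0.0102 against 1.02% ± 0.0436 (SD, n = 3). Without the 10 most abundant genes of all it was lower by 0.0638 percentage points.

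Genes of both directions lay side by side along the chromosomes. In 247 consecutive windows of 20 tested genes, every window held at least 1 higher and 1 lower gene. The median window had 2 genes changed at least 2-fold, the fullest had 6, and 217 windows had a median log2 change within 0.25 of 0. The highest window median was 0.52, on chromosome 7 from 834135 to 868103, where 13 of 20 genes were higher and 1 lower. The lowest was -0.41, on chromosome 4 from 260063 to 291910, with 3 higher and 12 lower. These windows were picked for their values and carry no test.

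Near chromosome ends the balance of higher and lower genes differed between those within 10 kb and those from 10 to 20 kb. Ends were taken as base 1 and the end of the last annotated gene. Within 10 kb, 20 of 40 tested genes were higher and 6 lower, with a median log2 change of 0.31. From 10 to 20 kb, 13 of 57 were higher and 25 lower, with a median of -0.23. At 20 to 100 kb, 217 of 605 were higher and 151 lower, and beyond 100 kb 1321 of 4304 were higher and 1367 lower, as among all genes. The split at 10 kb was made after the values were seen and carries no test. The genes at least 2-fold changed within 20 kb came from 11 of the 16 ends, at most 3 from 1 end. The ends differed: median log2 changes of genes within 20 kb ran from -0.41 to 1.32, with 6 of the 16 above 0. The right end of chromosome 1 had 3 of its 4 tested genes higher at least 2-fold, and the right end of chromosome 6 had 3 of 7 lower. End genes are also less abundant, with a median of 39.4 CPM within 20 kb against 55.6 CPM for all tested genes. Within 10 to 100 CPM, 5 of 55 end genes were higher and 6 lower at least 2-fold, against 9.72% of the 2470 genes of that class beyond 100 kb. End genes as a group took 1.29%, 1.22% and 1.24% of counts in MMS and 1.05%, 1.01% and 1.06% in controls, without overlap (exact permutation p = 0.1, adjusted 0.164). The difference was 0.210 percentage points, and 0.107 without the 10 most abundant genes, again without overlap.

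Adjacent genes changed more alike than genes farther apart, most of all those read outward from a shared short gap. Over 4634 adjacent pairs that overlap no gene, the Pearson correlation of log2 changes was 0.15. It was 0.06 for genes 2 apart and 0.03 for genes 10 apart. Divergent pairs, whose starts face each other, had a correlation of 0.24 over 1278 pairs, tandem pairs 0.11 and convergent pairs 0.13. With a gap under 300 bases, 361 divergent pairs had 0.36. Where both genes of such a close divergent pair were called, 96 of 127 moved the same way, or 75.6%, against 50.4% for divergent genes 10 apart. All pairs come from the same libraries at the same depth, and base composition was not measured, so these are descriptions.

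The likeness of divergent neighbours appeared in each separate set of libraries. Taking MMS and control replicates 1, 2 and 3 as disjoint differences, close divergent pairs had correlations of 0.35, 0.35 and 0.32. In differences between control libraries the same pairs had 0.00, 0.06 and 0.05, and between MMS libraries 0.04 to 0.15. Differences within a group were smaller, with a median size over all tested genes of 0.07 to 0.11 on the log2 scale. For the 3 disjoint differences it was 0.35 to 0.37, so the 2 sets of correlations are not a like comparison.

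**Figure D5:**
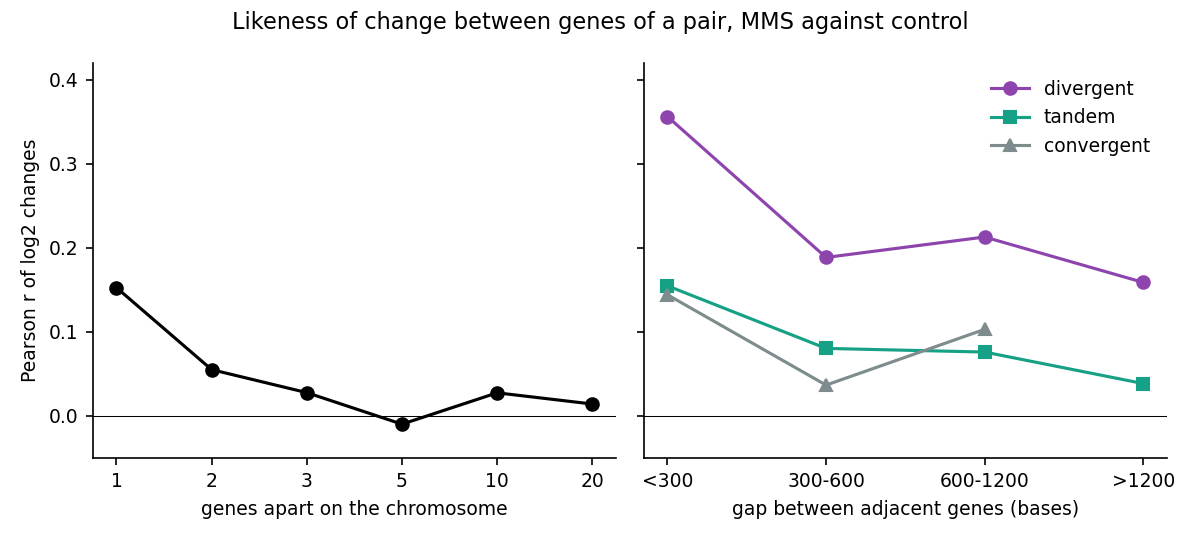
Pearson correlation of log2 changes between the genes of a pair (vertical), by the number of genes apart (left) and by the gap between adjacent genes for each orientation (right). Divergent pairs under 300 bases apart reach 0.36; convergent pairs over 1200 bases, of which there are 12, are left out.

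Genes in several coding parts and overlapping genes were also counted apart. Of the 141 tested genes in several coding parts, 31 were higher and 48 lower, or 22.0% and 34.0%, with a median log2 change of -0.14 and 6.38% at least 2-fold. The 267 genes that overlap another had 79 higher and 85 lower, or 29.6% and 31.8%, and 8.99% at least 2-fold. All tested genes had 31.2% higher, 31.1% lower and 10.5% at least 2-fold. A strand setting for the counting was not given in the sources used here, so counts of overlapping genes are uncertain.

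Replicates agreed closely in both groups. The root mean square log2 distance was 0.15 to 0.20 between MMS libraries, 0.20 to 0.24 between controls and 0.66 to 0.70 between the groups. Libraries of different groups had 518 to 621 genes at least 2-fold apart, against 10 or 11 between MMS libraries and 8 to 26 between controls. All 3 MMS libraries lay on one side of all 3 controls in 73.9% of tested genes, 37.0% above and 36.9% below. Of the called genes 3129 were separated in this way and 44 were not, and every gene called at least 2-fold was separated. The 3 disjoint differences between same-numbered libraries had correlations of 0.89 to 0.92 across genes. They had 1 sign in 80.3% of all tested genes, in 99.4% of called genes and in 48.9% of genes not called. Calls were made on these same libraries, so the agreement of called genes is largely built in.

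The spread between MMS libraries was, by its median, no wider than between controls. The median SD of a gene's log2 CPM was 0.08 within MMS and 0.09 within controls, and it was the larger in MMS for 43.6% of genes. By abundance that percentage ran from 35.8% above 1000 CPM to 46.7% at 10 to 100 CPM. It was 32.1% among genes higher at least 2-fold and 47.6% among genes lower at least 2-fold. MMS replicate 2 has the deepest library and MMS replicate 1 the shallowest of the 6, and with 3 libraries per group a difference in spread was not tested.

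Set directly against the other stresses counted in the same way, MMS differed from heat in 56.5% of genes and from caffeine in 66.1% (edgeR calls). Against heat 29.2% were higher in MMS and 27.2% lower, and against caffeine 32.2% were higher and 33.9% lower. Heat was growth at 39C. The contrasts share the MMS libraries, and those with controls share the controls. Above control, heat and caffeine together lay 8.06% of tested genes, and below all 3 lay 10.9%. With at least 2-fold required against each, 15 genes were higher and 90 lower. The 15 included 3 genes within 20 kb of an end, where 97 of all 5098 tested genes lay. The median level of the 15 was 34.2 CPM in controls and 122 CPM in MMS. The 90 lay on all 8 chromosomes, 2 of them within 20 kb of an end, and went from a median of 86.6 CPM to 26.0 CPM.

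The genes changed at least 2-fold in MMS were also followed in heat and caffeine. The 287 genes higher at least 2-fold in MMS had a median log2 change against the same controls of 1.31 in MMS, 1.28 in caffeine and 0.63 in heat. Of these, 203 were higher in MMS than in heat in the direct test and 119 than in caffeine, while 15 were lower than in heat and 53 lower than in caffeine. The 250 genes lower at least 2-fold had medians of -1.34 in MMS, -0.20 in caffeine and -0.56 in heat. In direct tests 175 were lower than in heat, 187 lower than in caffeine and 150 lower than in both, while 12 were higher than in heat and 37 higher than in caffeine. These genes were chosen for their change in MMS, so a smaller median in the other stresses is partly built in.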

How the data were processed

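Per the submitters' processing notes reads were handled with TopHat and HTSeq, with no version. The deposited values are raw counts per coding part, not normalized. Parts were summed to genes, and HTSeq's special lines were left out of library sizes and tests. The ethanol files were counted on exons with featureCounts 1.6.3, per the file headers, and gave gene positions and exon lengths. A genome build was not given in the sources used here. Heat, caffeine and ethanol libraries shared the estimate of spread: all 15 K. marxianus libraries were fitted in edgeR 4.0.16 (R 4.3.3) with filterByExpr, TMM scaling and the quasi-likelihood test, group as the only term. Tests were 2-sided, with Benjamini-Hochberg adjustment over 5098 genes. CPM use TMM-scaled totals, and shares use raw totals. The standard error of a log2 change was derived from its F statistic. Library-level values were compared by 2-sided exact permutation. Correlations between libraries used log2 CPM with a prior count of 2. Detection was compared after thinning to 18941586 counts.

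IDs were named by a rule: called, at least 2-fold, at least 10 CPM in the higher group, no overlap of groups or of genes, then the 2 largest rises and 2 largest falls in mean CPM; 453 genes met its conditions. The groups, classes and rule were chosen with earlier results of these data known. The steps were tested on simulated data in which far fewer genes changed than were called here. That test does not cover scaling or error rates when most genes change. The spread between replicates was wider in genes of few counts, with median SDs of log2 CPM of 0.34 in MMS and 0.40 in controls under 1 CPM, against 0.06 to 0.09 in the classes above 10 CPM. The edgeR p-values set each difference against the spread between replicates, as estimated from all 15 K. marxianus libraries.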

Additional observations from a re-analysis of the deposited data

How the results depend on the processing

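No gene was called in the opposite direction under RLE scaling, DESeq2 1.42.0, no count filter, fits of the 6 libraries alone or of 12 without ethanol, the replicate number as a block, no overlapping genes, or with each replicate left out. Genes higher and lower numbered 1435 and 1716 with RLE scaling, 1477 and 1758 with DESeq2 and 1395 and 1600 without overlapping genes. Of the 3009 to 3173 called genes that a setting tested, 2794 to 3158 remained called in the same direction. Without 1 replicate, 1399 to 1454 were higher and 1394 to 1454 lower, and at least 2-fold 276 to 294 and 241 to 270. Same-numbered MMS and control libraries did not deviate together (correlations of -0.30, -0.15 and 0.05), so the numbers were not taken as pairs; the replicate block gave 1624 higher and 1608 lower genes.

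Class counts stayed within 1.5 times except at small numbers. In the 6 libraries alone, 14 genes over 1000 CPM were higher (9 in all 15 libraries) and 7 under 1 CPM were lower (13). Without 1 replicate, the class under 1 CPM had 5 to 8 higher and 8 to 10 lower genes. The share of lower genes among called genes was 91.7% over 1000 CPM and 67.6% in the highest quintile per length. Of end genes 27.5% changed at least 2-fold within 10 kb, 21.6% within 20 kb and 14.7% within 50 kb.

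Some differences in library shares (MMS minus control, percentage points) turned sign. Why they did so when a replicate was left out was not tested. They ranged without 1 replicate from -0.205 to 0.105 for genes under 500 bases, from -0.342 to 0.0712 for 500 to 1000 bases and from -0.0286 to 0.152 for reads on no feature. Without the 10 most abundant genes they were 0.881 for 500 to 1000 bases (-0.0807 with them), -0.0638 for small sequences (0.0761) and -0.171 for genes in several coding parts (0.287). These shares are of a total without the 10 genes, which held 32.0% of counts in controls and 23.6% in MMS. The total was thus cut by more in controls than in MMS.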
